A study of Homo sapiens with 12 samples.

Results

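The response of A549 cells to ISP-I was read from the 6 A549 libraries of a series of 12, 3 from non-treated cells (control) and 3 from cells given ISP-I at 10 µM for 48 h. The libraries were chosen by the line and the treatment that their columns name, and no gene was left out on its values except by a filter on low levels. A549 is an established human non-small cell lung cancer (NSCLC) line derived from a lung adenocarcinoma, listed as wild type (WT). According to the paper, however, its KEAP1 gene is inactivated by homozygous mutation. ISP-I (isovalerylspiramycin I) is a component of carrimycin, a macrolide antibiotic. The other 6 libraries came from H460, a human large-cell lung cancer line, under the same treatment, and served here only to ask where the A549 response differed. A549 is a single established line grown in culture, and the labels number the replicates without saying whether they were separate cultures, so the p-values measure the spread between these libraries, which may be technical. The paper reports apoptosis, lower viability and cell cycle arrest of A549 cells after ISP-I, from separate assays. The part of these effects in the changes below was not tested. The libraries themselves carry no measure of cell number or of RNA per cell. Fewer cells of a kind and less RNA per cell therefore cannot be told apart in these bulk libraries.

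Macrolides bind the bacterial ribosome, and the cells treated here are human, so the question is which genes of the host cell change. A cell under stress is known to answer on several levels. Immediate early genes such as EGR1 and FOS respond within minutes to kinase signalling, the integrated stress response slows translation through phosphorylation of the initiation factor eIF2 and raises ATF4 and DDIT3, metallothioneins bind zinc and copper, and p53 and the cell cycle programme decide on arrest. A549 cells also keep traits of lung epithelium, among them mucins, claudins and high levels of aldehyde dehydrogenases and aldo-keto reductases. The account below goes through these functions and the gene families around them. PI3K/AKT and oxidative stress genes are not treated as groups, though single genes tied to them, such as GPX2, SLC7A11 and DDIT4, appear.

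Values are FPKM, fragments counted on a gene scaled to its length in kilobases and to the depth of the library, as deposited. Fold changes are on the log2(FPKM + 1) scale, which understates the change of genes near or below 1 FPKM. Reads on genes numbered 14225849 to 15686651 per A549 library. Control library 3 stood apart from controls 1 and 2, at 28.0 and 32.5 times the variance of read sampling (chi-square per degree of freedom) against 3.38 between controls 1 and 2 and 3.03 to 3.29 among the ISP-I libraries. Its levels ran with gene length, with a median log2 difference from the other controls of 0.08 over the shortest 25% of the genes tested and -0.11 over the longest 25%. The changes after ISP-I themselves had medians of 0.08 and -0.01 in these length groups, or 0.10 and -0.06 without control library 3. By the rule given below, 236 genes were called higher and 123 lower in the shortest group. In the longest these counts were 77 and 99. Results that rest on this library are given below also without it. Epithelial markers were present, with a summed level of 1436 to 1826 FPKM in controls and 1252 to 1266 after ISP-I. Of the alveolar type II markers, the surfactant genes SFTPC, SFTPB and SFTPA1 were at or near 0, and NAPSA and LAMP3 stayed below 1 FPKM. ABCA3 of the same list was expressed, at 14.2 ± 1.23 FPKM in controls and 11.1 ± 0.371 after ISP-I. Leukocyte markers summed to 1.92 to 2.64 FPKM in controls and 6.85 to 7.38 after ISP-I, and most of the treated sum was ITGAM, an integrin chain of myeloid cells that went from 1.23 ± 0.0749 to 6.89 ± 0.142 FPKM. CD14, a monocyte marker of the same list, went the other way, from 1.07 ± 0.307 to 0.144 ± 0.144 FPKM (-0.85, adjusted p = 0.000687, not called here but called with a pseudocount of 0.1 at -2.37), while PTPRC and CD3E were at or near 0. The part of these markers in the results was not tested.

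Of 19973 genes listed, 13705 were tested, those that averaged 0.1 FPKM or more across the A549 libraries. A gene was called when its fold change was above 2 and its adjusted p below 0.05 (limma, Benjamini-Hochberg). By this rule 7.71% of the genes tested were called, 4.2% higher and 3.51% lower after ISP-I. Past the adjusted p at any fold stood 4185 genes as higher and 3702 as lower. The counts of each list below are to be read against these values. Most genes moved little, since 69.4% had an absolute log2 change of at most 0.5 and the median change was 0.02. The genes that rose started lower, at a median of 3.44 FPKM in controls, than those that fell, at 12.2 FPKM. Large changes leaned upward. More than 4-fold changes were seen in 78 genes that rose and 29 that fell, and more than 8-fold changes in 24 and 4. Without control library 3, 556 genes were higher and 498 lower, and 949 of the 1056 calls held in the same direction. The groups did not overlap in 65.5% of the genes tested, so this alone singles out no gene. Of the 1056 called genes, 276 stood in the gene lists described below, 48 lists of functions and families that hold 1831 different genes tested and overlap in part. Where leaving out 1 library took a named gene back under 2-fold, the value without that library is given beside it.

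**Figure D1:**
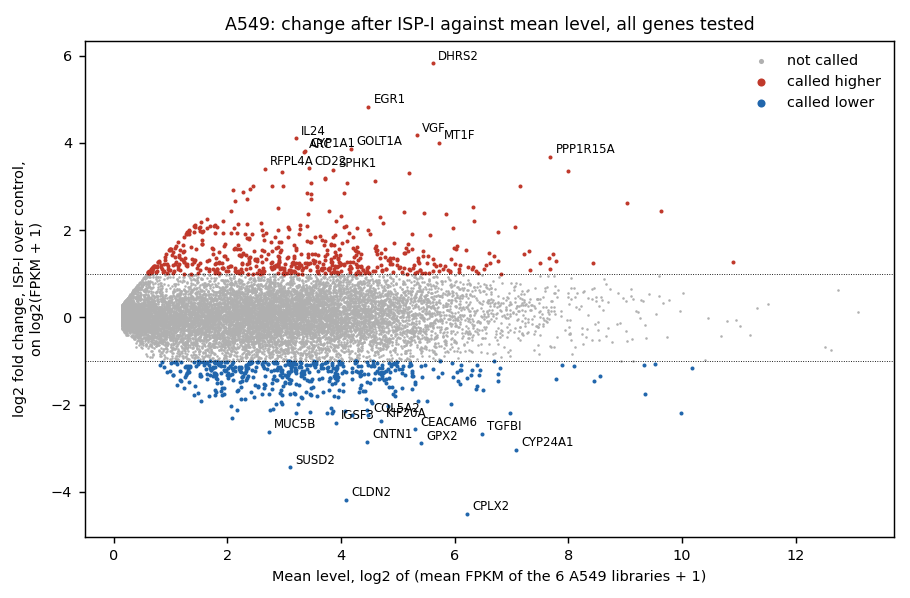
Change after ISP-I (vertical, log2 fold change on log2(FPKM + 1)) against mean level (horizontal, log2 of mean FPKM + 1) for the 13705 genes tested in A549. Red points were called higher and blue points lower, dotted lines mark a 2-fold change, and the 12 largest rises and 12 largest falls among genes averaging 5 FPKM or more carry their names.

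The largest rises came from genes of very different function. The genes named here and below as risen or fallen were called, with adjusted p of at most 0.00463, and their groups did not overlap. DHRS2, a short-chain dehydrogenase/reductase (chr14:23630115-23645639, hg38), stood at 0.672, 0.660 and 0.765 FPKM in controls and 94.7, 97.1 and 94.1 after ISP-I, a log2 change of 5.83 (SE 0.065). The transcription factor EGR1 (chr5:138465479-138469303) went from 0.291, 0.694 and 0.604 to 42.4, 39.0 and 45.0 FPKM, a change of 4.82 (SE 0.11). VGF, a nerve growth factor-inducible secreted protein (chr7:101162509-101165569), went from 3.57, 3.02 and 3.11 to 73.3, 72.5 and 79.7 FPKM (change 4.17, SE 0.077). For these genes the lowest treated library was many times the highest control. IL24, an interleukin of the IL-10 family, had a single read in the 3 controls and 16.3, 15.9 and 17.0 FPKM after ISP-I (4.10, SE 0.073). GOLT1A, which carries the name Golgi transport 1A, rose from 1.31 ± 0.343 to 32.7 ± 3.18 FPKM (mean ± SD, n = 3; 3.87, SE 0.12). CYP1A1, a cytochrome P450 known as a classic target of the aryl hydrocarbon receptor, rose from 0.372 ± 0.188 to 18.3 ± 2.51 FPKM (3.81, SE 0.13). Among the other large rises were CD22, a sialic acid-binding lectin best known from B cells, from 0.863 ± 0.222 to 18.9 ± 0.497 FPKM, and SPHK1, the kinase that makes sphingosine-1-phosphate, from 1.59 ± 0.497 to 25.5 ± 1.04 FPKM. RFPL4A, a ret finger protein-like gene, had 0, 0 and 0.262 FPKM in controls and 10.8, 10.9 and 9.77 after ISP-I. It belongs to a cluster of near-identical copies, so reads may be shared among them.

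The 12 largest falls were likewise of mixed function. CPLX2, a complexin that controls vesicle fusion (chr5:175796310-175884021), stood at 126, 145 and 155 FPKM in controls and 5.61, 5.16 and 5.05 after ISP-I (change -4.51, SE 0.087). CLDN2, a claudin that forms cation pores in tight junctions (chrX:106900164-106930861), went from 29.2, 30.8 and 34.1 to 0.825, 0.636 and 0.879 FPKM (-4.19, SE 0.09). The treated libraries of CLDN2 were all below 1 FPKM, and the spread within each group was small beside the gap. SUSD2, a sushi domain membrane protein, went from 13.7, 15.8 and 14.3 to 0.425, 0.568 and 0.345 FPKM (-3.43, SE 0.092). CYP24A1, the enzyme that inactivates vitamin D, fell from 240.0 ± 7.91 to 28.4 ± 1.16 FPKM (-3.03, SE 0.065), and GPX2, an epithelial glutathione peroxidase, from 73.8 ± 7.97 to 9.09 ± 0.874 FPKM (-2.89, SE 0.098). CNTN1, a neuronal adhesion molecule, had 43.7, 42.9 and 26.1 FPKM in controls and 4.41, 4.4 and 3.83 after ISP-I. Control library 3 was the lowest of its controls but lay well above every treated library. CEACAM6, a carcinoembryonic antigen family adhesion protein, fell from 66.6 ± 1.39 to 10.4 ± 0.814 FPKM (-2.57, SE 0.072) and IGSF3, an immunoglobulin superfamily member, from 24.2 ± 1.17 to 3.72 ± 0.233 FPKM (-2.42, SE 0.074).

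**Figure D2:**
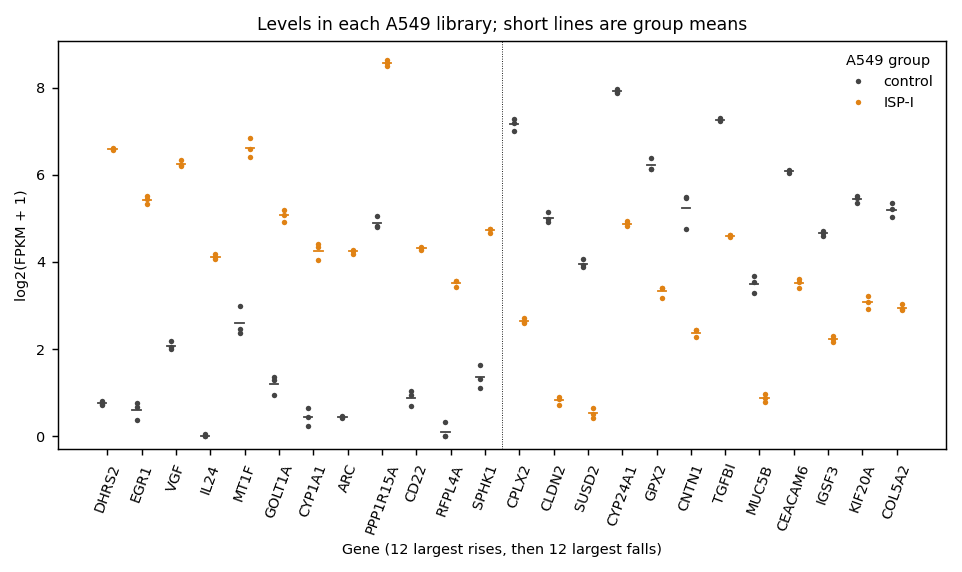
Level of the 12 largest rises and 12 largest falls in each A549 library (vertical, log2(FPKM + 1), dark points for controls and orange points for ISP-I, short lines for group means). The groups do not overlap for any of the 24 genes.

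Several immediate early genes rose. Of 33 members tested in a list of AP-1, EGR and other immediate early genes, 11 were called higher and 0 lower, beside 4.2% and 3.51% of all genes, with a median change of 0.73 beside 0.02 for all genes. Among the transcription factors, beside EGR1, these were ATF3, which went from 1.46, 1.35 and 1.22 to 18.5, 19.0 and 18.9 FPKM (3.08, SE 0.074), FOSB (1.97), the small MAF protein MAFF (1.90), FOS (1.58), JUN (1.54) and FOSL1 (1.45, SE 0.069). FOSL1, a FOS-like AP-1 subunit, was already high in controls at 112 ± 4.01 FPKM. ARC, a neuronal immediate early gene that encodes a capsid-like protein, went from 0.352, 0.386 and 0.339 to 17.3, 18.0 and 18.5 FPKM (3.80, SE 0.072). The mRNA decay factor ZFP36 (1.27), the small GTPase RND3 (2.38) and the matrix protein CCN1 (1.11, SE 0.075) rose too. Genes of MAPK feedback, which are switched on by ERK or its relatives and dampen them, had 4 of 29 called higher and 0 lower (median 0.26). The nuclear ERK phosphatase DUSP5 rose from 9.98 ± 1.75 to 57.1 ± 2.22 FPKM (2.42, SE 0.11) and DUSP1 from 79.1 ± 7.91 to 216 ± 8.0 FPKM (1.44, SE 0.085), and DUSP10 rose too (1.25). HBEGF, an EGFR ligand that is itself an immediate early gene, rose from 1.57 ± 0.165 to 6.05 ± 0.901 FPKM (1.45, SE 0.11), but of the other EGFR ligands and ERBB receptors none rose past the threshold. In that list of 17, ERBB2 fell from 11.4 ± 0.410 to 4.94 ± 0.154 FPKM (-1.07, SE 0.069), and the ligand NRG1 went from 13.8 ± 1.29 to 6.69 ± 0.0876 FPKM, a change of -0.94 that stayed short of 2-fold. NRG1 passed it without control library 3 (-1.01), and 3 of the 17 were then called lower in place of 1. With all libraries 11.8% of the 17 were called, beside 7.71% of all genes.

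The promoters of the risen genes were searched for the binding letters of AP-1 and for the cAMP response element. Sites of EGR and MAF factors were not searched. The windows were those of RefSeq on GRCh38.p14, 250 bases before to 50 after the start of each gene, and 10933 genes tested and 27305 genes in all had a window. The AP-1 letters TGACTCA, read on either strand, stood in 8.43% of 451 windows of genes called higher, in 2.65% of 377 windows of genes called lower and in 3.32% of the windows of genes tested (4.92% of all windows). The cAMP response element TGACGTCA stood in 4.43%, 2.12%, 3.16% and 1.98% of the same windows. These shares are descriptions and name no bound factor. A pair of the large rises, PPP1R15A and VGF, hold the cAMP response element close to their start, and the stretches of 120 bases before the start are shown with it in capitals. They lie at chr19:48872301-48872420 (PPP1R15A, plus strand) and chr7:101165570-101165689 (VGF, minus strand).
PPP1R15A: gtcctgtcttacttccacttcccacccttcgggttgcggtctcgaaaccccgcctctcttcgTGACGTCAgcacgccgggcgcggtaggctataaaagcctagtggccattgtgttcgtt
VGF: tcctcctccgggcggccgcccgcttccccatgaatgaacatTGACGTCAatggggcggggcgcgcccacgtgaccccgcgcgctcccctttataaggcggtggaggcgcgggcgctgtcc
The element begins 58 bases before the start in PPP1R15A and 79 bases before it in VGF.

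Members of the integrated stress response list moved in both directions. Of 43 tested, 7 were called higher, 9 lower and 27 in neither direction, with a median change of -0.32. PPP1R15A (GADD34), the phosphatase subunit that reverses eIF2 phosphorylation, went from 27.1, 26.8 and 32.2 to 379.8, 359.7 and 398 FPKM (3.68, SE 0.088). DDIT3 (CHOP), a transcription factor of the stress response, went from 0.861, 0.677 and 0.674 to 13.7, 12.8 and 12.5 FPKM (3.01, SE 0.082). Every treated library lay far above the controls for these genes. The others that rose were ATF3, CEBPB (2.21), the secreted glycoprotein STC2 (1.48), the pseudokinase TRIB3 (1.22) and ATF4 itself (1.11). All 3 enzymes of serine synthesis fell, PHGDH (-1.65), PSAT1 (-1.64) and PSPH (-1.11). The mitochondrial PEP carboxykinase PCK2 (-1.35), the alanine aminotransferase GPT2 (-1.02, but -0.97 without ISP-I library 3 and -0.93 without control library 3), the cystine carrier SLC7A11 (-1.12) and the neutral amino acid carrier SLC1A4 (-1.15) fell, as did the mTORC1 inhibitor DDIT4 (-1.12). SLC7A5, the large neutral amino acid carrier, went from 503, 532 and 576 to 216, 209.7 and 210.5 FPKM (-1.34, SE 0.079), and the glycine carrier SLC6A9 fell from 3.09 ± 0.215 to 0.663 ± 0.176 FPKM (-1.30, SE 0.097). In a list of 33 amino acid and monocarboxylate carriers that shares some of these genes, 4 were called lower and 1, SLC16A6, higher (0.580 ± 0.213 to 5.0 ± 0.336 FPKM). The C/EBP-ATF composite letters TGATGCAA stood in 17.1% of 35 windows of the stress response list and in 0.503% of the windows of genes tested (0.923% of all windows), but in none of the 7 windows of members called higher or the 6 of members called lower.

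Protein folding genes moved in part. In the endoplasmic reticulum list of 35, 3 were called higher and 2 lower (14.3%, beside 7.71% of all genes, median -0.11). DNAJB9, a co-chaperone induced by the IRE1 branch, rose from 3.73 ± 0.703 to 12.8 ± 1.17 FPKM (1.55, SE 0.12), SELENOS, a selenoprotein of ER degradation, from 17.6 ± 2.60 to 50.4 ± 2.17 FPKM (1.47, SE 0.10), and ERN1, which encodes IRE1 itself, by 1.16. Lower were folding proteins, with the disulfide isomerase PDIA4 falling from 137 ± 3.10 to 42.4 ± 0.712 FPKM (-1.67, SE 0.06) and calreticulin (CALR) with a change of -1.4. Of 28 heat shock proteins, 1 was called higher and 2 lower (median -0.28). The adjusted p was passed by 3 as higher and 12 as lower, or by 3 and 18 without control library 3 (median -0.37). The small chaperone HSPB8 rose from 5.77 ± 0.455 to 20.6 ± 0.433 FPKM (1.68, SE 0.074). HSPA2 fell from 13.7 ± 0.164 to 4.63 ± 0.0985 FPKM (-1.38, SE 0.065) and HSPA1A from 74.2 ± 3.76 to 28.5 ± 4.96 FPKM (-1.36, SE 0.12). HSPA1A has a near-identical neighbour, so its reads are uncertain. Of 44 proteasome subunits and assembly factors, 0 were called in either direction and 11 passed the adjusted p as higher and 9 as lower (17 and 11 without control library 3), with POMP at a change of 0.63 and PSMD1 at -0.60. With all libraries, 4185 of the 13705 genes tested passed as higher and 3702 as lower, a larger share both ways than in this list.

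Some metallothionein genes rose, and MT2A was among the largest gains in level. Metallothioneins are small cysteine-rich proteins that bind zinc and copper, and their genes share stretches of sequence, so reads may be split among copies. MT2A went from 222, 197 and 334 to 1359.7, 1366 and 1274 FPKM (2.44, SE 0.18). MT1F went from 4.52, 4.19 and 6.95 to 84.1, 114 and 95.8 FPKM (4.01, SE 0.17). In each of these control library 3 was the highest control, and every treated library lay above it. MT1G rose too (1.08, but 0.93 without ISP-I library 2), and SLC30A1, the zinc exporter of the plasma membrane, from 15.8 ± 2.05 to 42.2 ± 3.65 FPKM (1.37, SE 0.11). These were the 4 called of 23 members tested, with 0 called lower and a median of 0.30, and the other 19 were not called. The last 170 bases before the start of MT2A (chr16:56608414-56608583, plus strand) are shown with metal response element letters in capitals (TGCGCNC or TGCACNC, either strand).
MT2A: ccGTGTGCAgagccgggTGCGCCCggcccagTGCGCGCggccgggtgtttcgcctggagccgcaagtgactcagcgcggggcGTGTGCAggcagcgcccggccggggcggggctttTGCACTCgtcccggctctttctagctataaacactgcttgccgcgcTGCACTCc
The stretch holds 6 such matches, the nearest beginning 8 bases before the start. These letters are common, since the first form stood in 30.6% and the second in 11.4% of the windows of genes tested (20% and 11.9% of all windows).

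The autophagy genes that rose included cargo receptors and ATG8 proteins. Of 48 autophagy genes tested, 7 were called higher and 1 lower, with a median of 0.22. SQSTM1 (p62), the receptor for ubiquitinated cargo, went from 139.5, 144 and 156 to 897, 877 and 939 FPKM (2.62, SE 0.079). The ATG8 family member MAP1LC3A went from 2.01, 2.36 and 3.59 to 15.1, 14.8 and 14 FPKM (2.12, SE 0.15) and GABARAPL1 from 1.96 ± 0.202 to 11 ± 0.383 FPKM (2.01, SE 0.081). MITF (1.85), the receptor OPTN (1.16), ATG12 (1.08, but 0.99 without control library 3) and UVRAG (1.02, but 0.95 without ISP-I library 3 and 0.93 without control library 3) rose, and the starting kinase ULK1 fell (-1.37). Without control library 3, 5 were higher. Lysosomal proteins went both ways, 3 of 54 higher and 4 lower (median -0.12). The sialidase NEU1 rose from 5.06 ± 0.363 to 19.3 ± 0.675 FPKM (1.75, SE 0.074), the membrane tetraspanin CD63 from 128 ± 25.9 to 310.4 ± 11 FPKM (1.29, SE 0.13) and the cholesterol exporter NPC1 by 1.18. The hydrolases FUCA1 (-1.10), LIPA (-1.08) and GAA (-1.03, but -0.98 without control library 3) were among those that fell. Of 20 subunits of the V-ATPase, the proton pump of the lysosome, ATP6V1F (15.4 ± 3.43 to 39.5 ± 3.06 FPKM) and ATP6V1D (11.4 ± 1.04 to 27.2 ± 1.47 FPKM) rose.

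Lipid genes that rose included storage, activation and sterol synthesis. PLIN2, the coat protein of lipid droplets, went from 8.25, 7.14 and 7.80 to 41.8, 41.4 and 42.7 FPKM (2.30, SE 0.07). The acyl-CoA synthetases ACSL3 (17.0 ± 3.94 to 52.0 ± 1.72 FPKM) and ACSL4 (1.21, but 0.99 without control library 3) and the phosphatidate phosphatase LPIN1 (3.44 ± 0.338 to 9.35 ± 0.658 FPKM) rose, and SREBF1 fell (-1.04, but -0.99 without control library 3), together 4 higher and 1 lower of 42 (median -0.01). Of 29 genes of cholesterol synthesis and uptake, 4 rose and 0 fell (median 0.25). INSIG1, the sterol-sensing brake of SREBP processing, rose from 8.57 ± 0.28 to 34.9 ± 1.06 FPKM (1.90, SE 0.063), and the synthesis enzymes HMGCS1 (16.0 ± 2.43 to 34.6 ± 0.757 FPKM, log2 change 1.08 but 0.95 without control library 3), IDI1 (8.77 ± 0.822 to 19.0 ± 0.583 FPKM, log2 change 1.04 but 0.97 without control library 3) and MSMO1 (1.01, but 0.98 without ISP-I library 2, 0.99 without control library 2 and 0.95 without control library 3) just passed 2-fold. Without control library 3 only INSIG1 of these stayed past the threshold. In the glycolysis and hypoxia list 4 of 40 were higher and 1 lower (median 0.00). ADM, the vasodilator peptide adrenomedullin, went from 30.6, 29.3 and 31.3 to 248, 247 and 259 FPKM (3.01, SE 0.063), and HK2, the inducible hexokinase, from 0.701, 0.632 and 0.744 to 6.37, 6.32 and 6.54 (2.13, SE 0.073). HK1 (1.06) and NDRG1 (1.21) rose, and CA12, a cell surface carbonic anhydrase, fell from 91.2 ± 5.26 to 37.8 ± 3.15 FPKM (-1.25, SE 0.081).

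Genes of the translation machinery shifted upward by small amounts. Over all 13705 genes tested, 4185 passed the adjusted p as higher and 3702 as lower. Of 79 cytosolic ribosomal proteins, 0 were called by the 2-fold rule, but 52 passed the adjusted p as higher and 1 as lower, with changes from -0.35 to 0.77 and a median of 0.41. RPL13A, a protein of the large subunit, had 259, 272 and 373 FPKM in controls and 494, 524 and 504 after ISP-I (0.77, SE 0.14), with control library 3 the nearest to the treated libraries. RPL37A went from 33.3 ± 5.79 to 57.0 ± 4.72 FPKM and RPL36 from 71.0 ± 24.0 to 115 ± 12.3 FPKM. Without control library 3, 73 of the 79 passed as higher and the median was 0.51. Of 53 nucleolar genes of ribosome biogenesis, 41 passed as higher and 0 as lower, and 4 were called, among them RRP9, which binds the U3 RNA (41.1 ± 8.10 to 94.1 ± 5.68 FPKM), WDR43 (46.4 ± 10.0 to 103 ± 5.17 FPKM, log2 change 1.15 but 0.96 without control library 3) and UTP14A (20.6 ± 1.22 to 46.3 ± 2.34 FPKM). Their median was 0.54. Mitochondrial ribosomal proteins had 44 of 76 past the adjusted p as higher and 3 as lower (median 0.35), and MRPS18A (1.08, SE 0.13, but 0.97 without control library 2) and MRPL58 (1.06, SE 0.11, but 0.95 without control library 2) were called (2.63%, beside 7.71% of all genes). Translation factors had 29 of 54 past the adjusted p as higher and 8 as lower (median 0.32), and 2 were called higher and 1 lower (5.56%, beside 7.71% of all genes). Those numbers were 32 and 15 without control library 3, with 4 called higher and 2 lower. Among them were the initiation factors EIF3D (57.3 ± 2.04 to 124 ± 3.76 FPKM) and EIF4A2 (20.9 ± 1.28 to 44.4 ± 0.649 FPKM). SR proteins, hnRNPs and their kinases had 8 of 42 past the adjusted p as higher and 15 as lower (median -0.09), and 0 were called. When control library 3 was left out, 24 passed as lower and the median was -0.17. HNRNPA2B1 went from 146 ± 23.8 to 77.2 ± 2.31 FPKM (-0.90), and without that library its change of -1.04 was the 1 call in the list.

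Mitochondrial transcripts did not move as a block. Of 78 nuclear genes of oxidative phosphorylation, 0 were called and 17 passed as higher and 5 as lower (median 0.14, 43 and 7 without control library 3), with the complex I subunit NDUFS4 at 0.74. With all libraries both shares were below those of all genes tested, of which 4185 of 13705 passed as higher and 3702 as lower. Among 13 mRNAs of the mitochondrial genome, MT-ND3 rose from 1119 ± 151 to 2706 ± 298 FPKM (1.28, SE 0.14) and MT-ND6, the only one of them encoded on the light strand, fell from 998 ± 238 to 471 ± 80.1 FPKM (-1.07, SE 0.18, but -0.95 without ISP-I library 3 and -0.88 without control library 1). Without ISP-I library 1 or control library 3, MT-ND5 was called lower too. The sources used here do not say if counting used the strand, and reads of opposite strands may then be mixed. MT-CO1 went from 7949 ± 498 to 4695 ± 151 FPKM (-0.76, adjusted p = 0.00144) and MT-CO2 from 7194 ± 889 to 4488 ± 58.1 FPKM (-0.67, adjusted p = 0.00395), the largest losses in FPKM among genes past the adjusted p. The largest gains in FPKM past the adjusted p, besides MT2A, SQSTM1 and MT-ND3, were those of the iron store FTL, from 5435 ± 1064 to 8349 ± 353 FPKM (0.64), and of the calcium-binding S100A6, from 536 ± 176 to 1008 ± 88.4 FPKM (0.95, but 1.20 without control library 3 and 1.0 without ISP-I library 3, both past 2-fold).

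**Figure D3:**
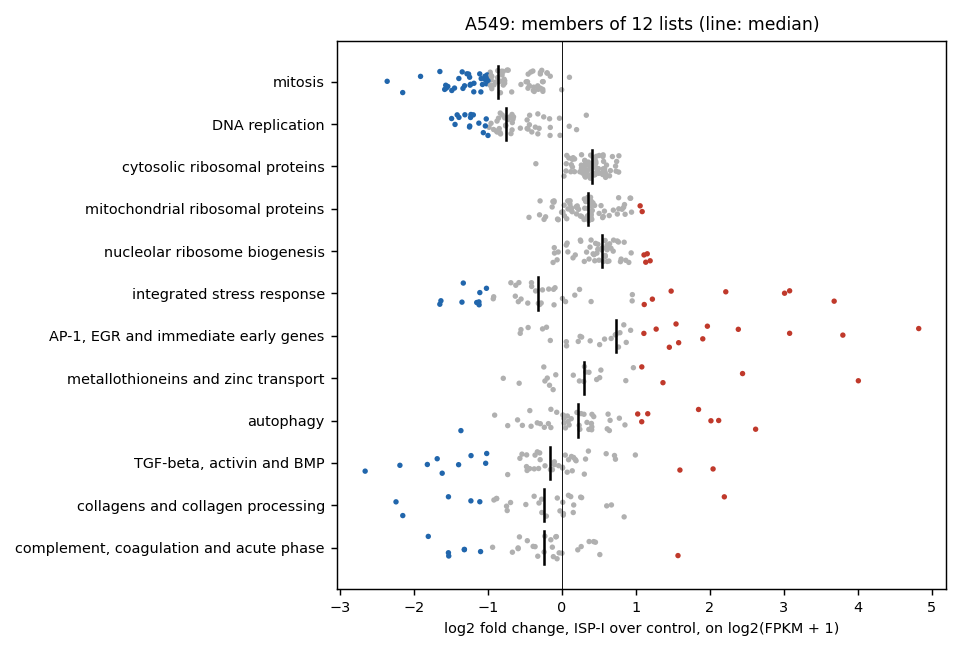
log2 fold change after ISP-I (horizontal) of each tested member of 12 gene lists in A549, with a black line at each list's median and red or blue points for members called higher or lower. Ribosomal proteins sit close together around their median of 0.41, whereas the integrated stress response has called members on both sides of 0.

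Mitosis genes had the largest share of falls of any list, and most of their promoters held the letters of the cell cycle element CHR. Of 83 mitosis genes tested, 31 were called lower and 0 higher (median -0.87), and 67 passed the adjusted p as lower. Without control library 3, 39 were called lower. The kinesin of cytokinesis KIF20A went from 42.9, 44.5 and 39.8 to 8.26, 7.51 and 6.55 FPKM (-2.36, SE 0.09). CDCA3, a trigger of mitotic entry, fell from 22.6 ± 1.71 to 4.30 ± 0.428 FPKM (-2.15, SE 0.088) and the condensin subunit NCAPD2 from 63.4 ± 2.01 to 16.1 ± 1.15 FPKM (-1.91, SE 0.071). The letters TTTGAA of the cell cycle gene homology region (CHR) stood, on either strand, in 63.8% of 69 mitosis windows and in 9.68% of the windows of genes tested (15.4% of all windows). Among members called lower it stood in 20 of 27 windows (74.1%). The CCAAT box (CCAAT, either strand), its usual partner, stood in 69.6% of the mitosis windows against 36.4% (35.7% of all windows). The 120 bases before the start are shown for 4 called members, with these letters in capitals, to show the spacing of the pair. CCNB2 (cyclin B2, chr15:59105026-59105145), ESPL1 (separase, chr12:53268179-53268298), KIF11 (the spindle motor Eg5, chr10:92593010-92593129) and PLK1 (Polo-like kinase, chr16:23678769-23678888) lie on the plus strand, and they were chosen after their values were seen.
CCNB2: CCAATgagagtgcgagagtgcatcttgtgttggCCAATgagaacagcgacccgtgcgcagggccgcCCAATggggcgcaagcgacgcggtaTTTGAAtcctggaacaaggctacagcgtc
ESPL1: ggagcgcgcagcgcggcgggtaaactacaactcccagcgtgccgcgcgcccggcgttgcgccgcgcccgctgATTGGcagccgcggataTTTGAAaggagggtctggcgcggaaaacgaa
KIF11: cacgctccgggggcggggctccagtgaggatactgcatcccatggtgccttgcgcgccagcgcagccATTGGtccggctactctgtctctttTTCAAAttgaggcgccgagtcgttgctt
PLK1: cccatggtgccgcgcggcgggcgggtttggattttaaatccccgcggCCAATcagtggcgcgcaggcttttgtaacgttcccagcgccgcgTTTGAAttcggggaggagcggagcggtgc
The CHR begins 28 to 31 bases before the start in each of them, with a CCAAT box upstream of it. Their log2 changes were -1.04 (CCNB2), -1.26 (ESPL1) and -1.09 (PLK1), and KIF11 fell too (-1.10, but -0.94 without control library 1 and -0.93 without control library 2).

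Part of the DNA replication genes fell as well. Of 58 tested, 15 were called lower and 0 higher (median -0.76). The replisome protein TIMELESS fell from 39.7 ± 0.80 to 13.4 ± 0.449 FPKM (-1.49, SE 0.061) and thymidine kinase TK1 from 158 ± 25.7 to 56.9 ± 2.93 FPKM (-1.45, SE 0.11). The CHR stood in 4.0% of their 50 windows, but the E2F letters TTTCCCGC stood in 22.0% against 2.52% of genes tested (1.66% of all windows) and TTTGGCGC in 18.0% against 1.03% (0.659% of all windows). In the homologous recombination and Fanconi list 4 of 38 fell (median -0.32), UBE2T from 36.7 ± 3.46 to 13.9 ± 0.721 FPKM, FANCD2 from 6.53 ± 0.606 to 2.24 ± 0.202 FPKM, RAD54L from 4.71 ± 0.167 to 1.75 ± 0.236 FPKM and FANCI (-1.04, but -0.97 without control library 1 and -0.97 without control library 2). In this list 7 were called lower without control library 3, and the median was -0.49. Of 41 replication histones 4 were higher and 0 lower. H1-2 went from 17.3, 13.2 and 23.3 to 89.3, 102 and 92.2 FPKM (2.37, SE 0.17), and H4C8 (1.22 ± 0.126 to 8.90 ± 0.924 FPKM), H4C14 (0.28 ± 0.0880 to 4.56 ± 0.526 FPKM) and H4C2 (1.05, but 0.92 without ISP-I library 2, 0.93 without control library 1 and 0.93 without control library 2) rose. Histone genes are near-identical copies, so their reads may be shared, and most of their mRNA has no poly(A) tail.

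G1 regulators were split, 5 of 28 higher and 5 lower (median 0.00). CCND3 (cyclin D3) fell from 36.4 ± 5.09 to 8.48 ± 0.467 FPKM (-1.97, SE 0.10), and so did the INK4 inhibitor CDKN2C (-1.78), the repressor E2F8 (-1.68), CCNE1 (-1.24) and CDK2 (-1.02, but -0.98 without ISP-I library 2 and -0.90 without control library 3). Beside CDKN1A and GADD45A, the antiproliferative gene BTG2 (1.42), GADD45G (1.09) and CDKN1C (1.07) rose. Of 45 p53 targets, 18 were called higher and 0 lower (median 0.80). They included negative regulators of p53, namely MDM2 (1.65) and the phosphatase PPM1D (1.45), and TP53INP1 (1.90), PHLDA3 (1.63), the exonuclease AEN (1.58) and the ribonucleotide reductase subunit RRM2B (1.07, but 0.76 without control library 3). GDF15, a stress cytokine, went from 23.6, 19.4 and 27.6 to 95.2, 101 and 101 FPKM (2.04, SE 0.12). Among 32 BCL2 family, caspase and IAP genes, 5 rose and 1 fell (median 0.20). Beside BBC3, the BH3-only gene HRK, nearly silent in controls at 0.103, 0.159 and 0.198 FPKM, stood at 3.67, 3.43 and 3.61 after ISP-I (1.99, SE 0.07). PMAIP1 (1.08) and the inhibitors of apoptosis BIRC3 and BIRC2 (1.0, but 0.94 without ISP-I library 3 and 0.79 without control library 3) rose, and CASP6 fell (-1.18). BIRC3 had 10.7, 10.1 and 4.90 FPKM in controls and 25.7, 26.8 and 27.2 after ISP-I, and its control library 3 lay well below the others.

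Genes of the NF-kB list moved in both directions. Of 44 tested, 6 were called higher and 3 lower (median 0.27). TNFAIP3 (A20), a ubiquitin-editing brake on NF-kB, went from 2.08, 2.02 and 1.71 to 17.7, 17.9 and 19.1 FPKM (2.71, SE 0.081), and the adaptor TRAF1 from 2.76, 3.13 and 3.24 to 27.8, 27.7 and 28.9 (2.85, SE 0.073). Beside IL24 and BIRC3, the cytokine IL32 (1.60) and the inhibitor NFKBIB (1.48) rose. The chemokine CXCL1 (-1.51), BCL3 (-1.46) and TNFAIP2 (-1.31) fell. Of 49 interferon-stimulated and MHC class I genes, 8 were higher and 2 lower (median 0.01). The exonuclease ISG20 went from 0.737 ± 0.110 to 5.59 ± 0.0598 FPKM (1.93, SE 0.079) and IFIT5 from 5.06 ± 1.70 to 14.4 ± 1.05 FPKM (1.39, SE 0.20), and IFI16 (1.26), ISG15 (1.24), IFIT3 (1.14), OASL (1.02, but 0.97 without ISP-I library 1 and 0.95 without control library 1), HLA-B (1.12) and HLA-E (1.17) rose. TAPBP (tapasin), which loads MHC class I, fell from 27.7 ± 1.80 to 10.6 ± 0.368 FPKM (-1.30, SE 0.071) and OAS3 fell too (-1.20). CXCL11, an interferon-induced chemokine, had no reads in the controls and 6.32, 6.19 and 7.09 FPKM after ISP-I, at least 169-fold above the level of 3 reads over the control group.

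Among the developmental signalling lists, falls outnumbered rises most in that of TGF-beta and BMP. In the TGF-beta, activin and BMP list 9 of 47 were called lower and 2 higher (median -0.16). TGFBI, a matrix protein named for its induction by TGF-beta, went from 151, 149.7 and 158 to 23.6, 23.4 and 22.8 FPKM (-2.66, SE 0.06). ID1, a direct BMP target that blocks bHLH factors, went from 194, 215 and 205 to 48.0, 47.7 and 37.0 FPKM (-2.19, SE 0.11). The inhibitory SMAD6 (-1.82), the ligands INHBB (-1.69) and BMP4 (-1.62), the receptor TGFBR2 (-1.23) and the latency proteins LTBP3 (-1.4), LTBP1 (-1.03, but -1.0 without ISP-I library 1) and LTBP2 (-1.02, but -0.99 without ISP-I library 1) fell, and GDF15 and the BMP antagonist GREM1 (1.59) rose. In the Wnt list, 2 of 35 rose and 3 fell (14.3% called, beside 7.71% of all genes, median -0.31). The feedback gene AXIN2 went from 3.94, 3.32 and 3.55 to 0.179, 0.183 and 0.267 FPKM (-1.93, SE 0.079), SFRP1 (-1.23) and the co-receptor LRP5 (-1.03, but -1.0 without ISP-I library 3 and -0.98 without control library 2) fell, and the ligand WNT9A (2.32 ± 0.350 to 12.6 ± 0.204 FPKM) and the inhibitor NKD2 (2.31 ± 0.0654 to 7.16 ± 0.549 FPKM) rose. In the Notch list 2 of 29 rose and 2 fell (13.8% called, beside 7.71% of all genes). The receptor NOTCH3 went from 3.05, 3.20 and 3.12 to 0.221, 0.176 and 0.185 FPKM (-1.79, SE 0.065) and the glycosyltransferase LFNG fell (-1.09, but -0.99 without control library 3), while the HES family repressors HES4 (6.93 ± 1.45 to 25.4 ± 1.47 FPKM) and HES7 (1.23 ± 0.559 to 5.56 ± 0.603 FPKM) rose.

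Among other transcription factor families, a few clock and KLF genes rose. NR1D1 (REV-ERB alpha) went from 4.25, 4.42 and 4.33 to 25.1, 21.6 and 24.8 FPKM (2.22, SE 0.078), and NR1D2 (7.72 ± 1.84 to 22.0 ± 0.927 FPKM) and CIART (1.12) rose, 3 of 21 clock genes with 0 lower (median 0.32). BHLHE40 went from 38.3 ± 1.11 to 69.1 ± 2.45 FPKM (0.84), short of 2-fold. Of 18 KLF and SP factors, KLF6 (24.3 ± 2.20 to 66.5 ± 2.39 FPKM), KLF10 (28.4 ± 1.61 to 58.8 ± 1.16 FPKM, log2 change 1.03 but 0.98 without control library 2) and KLF11 (2.43 ± 0.310 to 5.85 ± 0.223 FPKM, log2 change 1.0 but 0.98 without ISP-I library 1, 1.0 without control library 1 and 0.94 without control library 3) rose and 0 fell. Of 26 YAP/TAZ targets, 3 rose and 0 fell (median 0.20). ANKRD1, a muscle and stress ankyrin repeat protein, went from 6.87, 5.51 and 5.07 to 63.8, 65.0 and 68.5 FPKM (3.30, SE 0.10), and GADD45A and CCN1, which stand in other lists too, were the others.

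Of the junction genes, CLDN2, plakoglobin and E-cadherin fell. CDH1 (E-cadherin) had 4.77, 5.18 and 4.75 FPKM in controls and 0.911, 0.752 and 0.605 after ISP-I (-1.75, SE 0.089), and JUP (junction plakoglobin) fell from 22.0 ± 1.82 to 5.54 ± 0.331 FPKM (-1.81, SE 0.083). These were the 3 called lower of 34 tested, while the polarity protein PARD6B (1.39) and CLDN6 (1.10) rose, and the median was -0.14. In the intermediate filament list LMNB1, a lamin of the nuclear envelope, fell from 57.3 ± 3.10 to 19.3 ± 0.0491 FPKM (-1.52, SE 0.065), LMNB2 from 110.0 ± 5.70 to 46.7 ± 0.673 FPKM (-1.22, SE 0.065) and nestin (NES) from 1.94 ± 0.178 to 0.172 ± 0.0609 FPKM, while the plakin PPL rose (1.12), 3 lower and 1 higher of 24 tested. The count lower was 5 without control library 1, control library 2 or ISP-I library 3, and with median-of-ratios scaling, and the count higher was 2 without control library 2 or ISP-I library 1. Tubulins had 3 of 17 lower and 0 higher (median -0.39), with the main beta tubulin TUBB going from 347, 337 and 445 to 174, 179 and 163 FPKM (-1.12, SE 0.11, but -0.99 without control library 3), TUBB4A from 3.79 ± 0.522 to 0.986 ± 0.185 FPKM and TUBD1 from 4.93 ± 0.675 to 1.59 ± 0.502 FPKM. ACTB (beta actin), often taken as a reference gene, went from 1495, 1503 and 1838 to 715, 724 and 708 FPKM (-1.16, SE 0.11).

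Among collagens, the chains of type V moved in opposite directions. COL5A2 went from 35.9, 40.1 and 31.5 to 7.15, 6.48 and 6.58 FPKM (-2.25, SE 0.095) and COL5A1 from 26.7, 27.2 and 25.6 to 5.0, 5.06 and 5.50 (-2.15, SE 0.068), while COL5A3, almost silent in controls at 0.0415, 0.0502 and 0.0200 FPKM, stood at 3.98, 3.62 and 3.66 (2.20, SE 0.068). The groups of each chain lay far apart. The lysyl hydroxylase PLOD1 (-1.54), the collagen chaperone SERPINH1 (-1.11) and COL18A1 (-1.23) fell, 5 of 32 lower and 1 higher in all (median -0.24). Of 31 integrins, laminins and their partners, 4 fell and 2 rose. ITGB4, the hemidesmosome integrin, fell from 70.8 ± 2.50 to 18.2 ± 0.424 FPKM (-1.91, SE 0.062), fibronectin (FN1) from 16.0 ± 0.468 to 4.04 ± 0.331 FPKM (-1.75, SE 0.076), perlecan (HSPG2) from 16.9 ± 1.67 to 5.72 ± 0.355 FPKM (-1.41, SE 0.089) and ITGB5 fell too (-1.19). The integrin chain ITGA2 (1.01, but 0.97 without ISP-I library 1 and 0.81 without control library 3) and the laminin chain LAMB3 (1.01, but 0.98 without ISP-I library 3 and 0.99 without control library 3) passed 2-fold only narrowly, and with median-of-ratios scaling both had a change of 0.99. Of 36 matrix proteases and inhibitors, MMP10 (0.0262 ± 0.0227 to 2.25 ± 0.582 FPKM), MMP1 (1.46) and KLK6 (1.13) rose and ADAM19 (4.03 ± 0.432 to 1.33 ± 0.0284 FPKM) and ADAMTS9 (3.08 ± 0.389 to 0.924 ± 0.149 FPKM) fell.

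Some genes for secreted proteins of mucus and of plasma fell. The gel-forming mucins MUC5B, from 10.6, 11.8 and 8.84 to 0.947, 0.847 and 0.735 FPKM (-2.62, SE 0.11), and MUC5AC, from 15.9, 15.7 and 12.3 to 3.52, 3.36 and 3.05 (-1.85, SE 0.11), were both lower, and the trefoil peptide TFF1 rose from 0.555 ± 0.360 to 2.81 ± 0.613 FPKM, and the other 13 of 16 mucin and surfactant genes were not called. In the complement, coagulation and acute phase list 6 of 32 fell and 1 rose (median -0.24). APOH went from 3.96 ± 0.509 to 0.417 ± 0.161 FPKM (-1.81, SE 0.11), the protease inhibitor TFPI2 from 101 ± 4.37 to 34.1 ± 1.04 FPKM (-1.54, SE 0.065), and C3 (-1.53), C5 (-1.32) and fibrinogen alpha (FGA, -1.10, but -0.89 without control library 2) were also among those that fell, while APOE rose from 1.20 ± 0.266 to 5.50 ± 0.441 FPKM (1.57, SE 0.11). Genes of neuronal secretion moved in both directions, 6 of 36 higher and 5 lower. Beside VGF, the granins CHGA (2.20) and CHGB (1.14), the pentraxin NPTX1 (1.88) and the neurofilament-type proteins NEFL, from 0.874, 1.35 and 1.39 to 11.2, 10.9 and 12.5 FPKM (2.52, SE 0.11), and INA (1.53) rose. Beside CPLX2, the release machinery genes SYT13 (-1.35), VAMP1 (-1.18) and RAB3D (-1.06, but -0.97 without control library 2) and the stathmin STMN3 (-1.25) fell.

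Several abundant dehydrogenases and reductases fell. ALDH1A1, an aldehyde dehydrogenase that makes retinoic acid, was at 1794, 1792 and 1368 FPKM and stood at 371, 358 and 350.4 after ISP-I (-2.18, SE 0.12). The aldo-keto reductase AKR1B10 went from 999, 979 and 1052 to 283, 308 and 299 FPKM (-1.76, SE 0.08). The dehydrogenases ALDH3A1 (-1.46) and ALDH4A1 (-1.43) and the retinaldehyde reductase DHRS3 (-1.4) fell too, 5 of 49 lower with DHRS2 the single member called higher (median -0.19). The summed level of the 49 went from 4355 to 1988 FPKM. Among 51 cytochromes P450, conjugating enzymes and ABC pumps, 3 rose and 3 fell (median -0.19). Beside CYP1A1, CYP4F2 (1.72) and GSTO1 (1.04, but 0.99 without ISP-I library 2, 1.0 without control library 1 and 0.94 without control library 2) rose, and beside CYP24A1, CYP2S1, from 34.8 ± 3.46 to 7.21 ± 0.133 FPKM (-2.12, SE 0.082), and CYP4F11 (-1.17) fell.

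**Figure D4:**
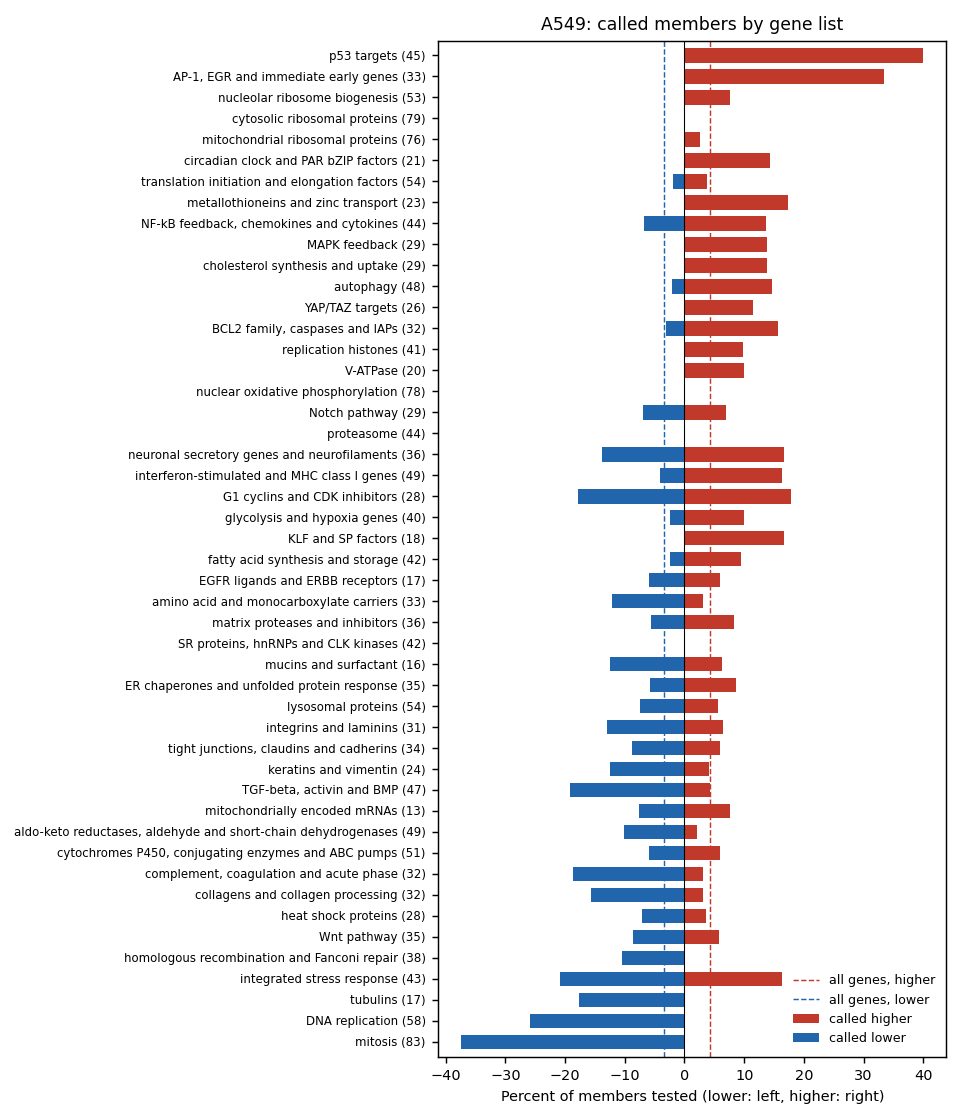
Percent of tested members called higher (red, to the right) and lower (blue, to the left) after ISP-I in A549 for 48 gene lists, sorted by median log2 fold change, with the number tested in brackets and dashed lines at the shares of all genes (4.2% higher, 3.51% lower). Mitosis has the largest share lower and p53 targets the largest share higher.

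Some genes went from silence to a measurable level. In 49 genes called higher each control library held at most 3 reads, and 0 genes called lower held so few after ISP-I. Besides IL24 and CXCL11, the skin barrier gene LCE1B (late cornified envelope) and KRTAP3-2, a hair keratin-associated protein, were the highest of these. LCE1B had no control reads and 3.12, 4.15 and 2.94 FPKM after ISP-I, at least 56.4-fold above the level of 3 reads over the control group. KRTAP3-2 had 3.85, 3.48 and 2.54 FPKM, at least 34.2-fold above that level. Of the 575 genes called higher, 156 had a control mean below 1 FPKM, and of the 481 called lower, 75 ended below 1 FPKM. The number of genes with any read was 14948 to 15062 in controls and 15759 to 15897 after ISP-I.

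The A549 response was set beside that of H460 gene by gene, with the difference tested as the interaction of line and treatment over the 12 libraries (called where the log2 difference was above 1 and the adjusted p below 0.05). Of 13953 genes tested, 16% were called, 1407 with a higher and 827 with a lower response in A549. This balance turned with median-of-ratios scaling, to 827 and 1300. The H460 libraries also differed among themselves, at 12.7 to 14.4 times the variance of read sampling between controls. Between H460 ISP-I libraries this was 22.9 to 98.7 times. How far the differences rest on single H460 libraries was not tested. Of the 1056 genes called in A549, 417 differed between the lines. Among these, 108 rose in A549 and rose less, or did not rise, in H460. Another 98 fell in A549 and fell less, or did not fall, in H460. A further 108 rose less than in H460 and 103 fell less. Of the 98, 68 had a mean below 1 FPKM in H460 controls, where on log2(FPKM + 1) no fall can exceed 1, so their difference and the low level in H460 cannot be told apart. A low level in A549 controls limits a fall there in the same way, and how many of the 103 this touches was not counted. NEFL rose in A549 and had a change of -2.28 in H460 (difference 4.79, adjusted p = 1.82e-09). GOLT1A (3.87 against 0.27, adjusted p = 1.03e-07) and the prostaglandin E synthase PTGES (-2.0 in H460, adjusted p = 5.12e-07) differed likewise, and PTGES just passed 2-fold in A549 (log2 change 1.0, but 0.99 without ISP-I library 2, 0.95 without control library 1 and 0.94 without control library 2). INSYN2B, which rose from 1.72 ± 0.159 to 18.5 ± 0.430 FPKM, was too low in H460 to be tested there alone. HSBP1L1 rose in A549 (1.44, SE 0.11) and had a change of -1.08 in H460. Other genes fell in A549 and fell less, or did not fall, in H460. They included CLDN2 (-4.19 against -0.54, adjusted p = 1.82e-09), SUSD2 (-3.43 against 0.10, adjusted p = 1.82e-09) and GPX2 (-2.89 against -0.26, adjusted p = 2.79e-07). All 3 are among the 68, with H460 control means of 0.653, 0.0708 and 0.602 FPKM, so they could hardly fall there. MUC5B and CEACAM6 had too little signal in H460 for a test within that line.

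By function, called differences of immediate early genes, clock genes, KLF factors and NF-kB genes were mostly lower in A549, which means a smaller rise or a larger fall than in H460. Over all genes 10.1% were called higher in A549 and 5.93% lower, or 5.92% and 9.3% with median-of-ratios scaling. H460 responded more broadly, with 3456 of 13423 genes tested called within that line against 1056 of 13705 in A549. The paper reports that a lower dose of ISP-I inhibits H460 than A549. At the shared dose, line and effective dose cannot be told apart. The median difference between the lines over all genes was 0.16 (A549 minus H460, log2), or -0.02 with median-of-ratios scaling, and the medians below are to be read against it. Of 34 immediate early genes tested, 22 had a called difference, each lower in A549 (median difference -1.69, or -2.0 with the other scaling). Of 47 NF-kB genes, 19 were lower in A549 and 2 higher (-0.74, or -0.78). Clock genes had 9 of 22 lower and 0 higher (-0.74, or -0.97), and KLF and SP factors 8 of 19 lower and 0 higher (-0.76, or -1.05). ER chaperones had 10 of 35 differences lower and 0 higher (-0.44, or -0.74), among them CALR, which changed by -1.4 in A549 and by -0.24 in H460.

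Called differences of p53 targets, mitosis genes and mitochondrial ribosomal proteins were mostly higher in A549. Of 44 p53 targets, 13 were higher in A549 and 3 lower (0.43, or 0.30 with the other scaling). Mitosis genes fell in both lines and less in A549, with 19 of 83 differences higher and 1 lower (0.58, or 0.31). Cytosolic ribosomal protein mRNAs had a median change of 0.41 in A549 and -0.44 in H460, and 10 of 79 differences (12.7%) were called, each higher in A549, a share near the 10.1% of all genes. With median-of-ratios scaling 0 of these 10 stayed past the threshold, and the median difference was 0.81 before and 0.52 after it. Mitochondrial ribosomal proteins had 23 of 78 differences higher and 0 lower (0.70, or 0.40), and 9 were called with the other scaling.

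**Figure D5:**
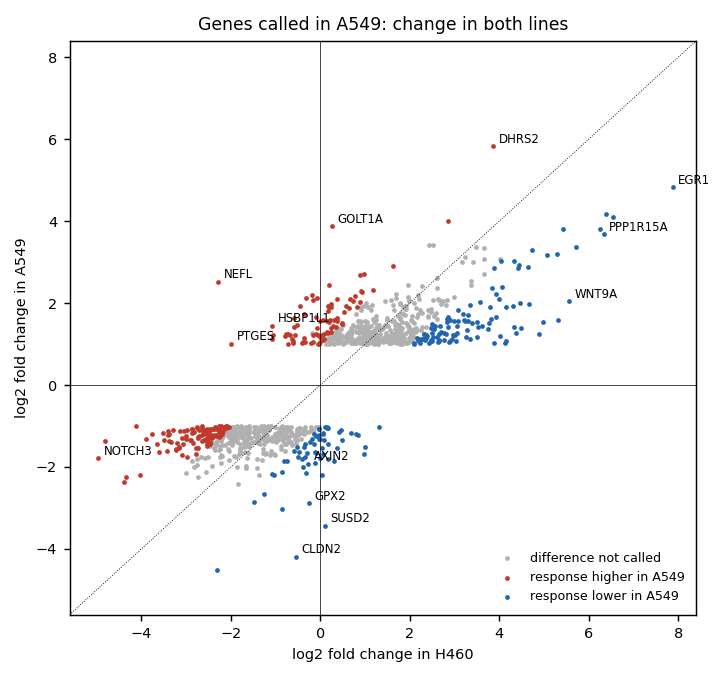
log2 fold change after ISP-I in H460 (horizontal) and A549 (vertical) for the 987 genes called in A549 and also tested in H460, with the dotted line at equal change. Red and blue points had a called difference between the lines, and NEFL and PTGES lie at the upper left, where the change was positive in A549 and negative in H460.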

How the data were processed

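Total RNA of A549 and H460 cells was sequenced for the authors by a service company as 150 bp paired ends. The deposited values are FPKM per gene on hg38, with a gene length column in bases, and the submitters' processing notes name HISAT2, HTSeq 0.9.1 and FastQC. FPKM times length gave whole reads for 100% of values (tolerance 0.01), from which depth was taken, and 4 lines that name no gene were left out. Sampling sets the precision of low genes. Counts and floors cover counting error only.

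Here limma 3.58.1 (R 4.3.3, trend) was fitted to log2(FPKM + 1) of the 6 A549 libraries for genes averaging 0.1 FPKM or more, and the interaction of line and treatment to all 12. Calls needed a fold above 2 and a Benjamini-Hochberg adjusted p below 0.05, both ways. The script was tested on simulated data. Columns name line and treatment, and groups follow them. Alternatives were a pseudocount of 0.1, a mean of 1 FPKM, no filter and median-of-ratios scaling. Others were limma treat, voom on recovered reads, and each A549 library left out. No H460 library was left out.

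Named genes were the 12 largest changes each way at 5 FPKM or more, up to 3 members of each list, the 5 largest differences from H460, the 5 largest changes in FPKM and genes with at most 3 control reads. Other called members were named after their values were seen. Some genes within these rules are not reported here. Members and lists were chosen with earlier results of these data known. A list of snoRNA host genes, with 1 gene in the table, was left out. Promoter windows came from RefSeq (GRCh38.p14).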

Additional observations from a re-analysis of the deposited data

Results flagged for a closer look

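Each value in this part is the log2 change after ISP-I in A549 minus that in H460, for a gene named in the text whose difference between the lines was called in the interaction test of limma (difference above 1, Benjamini-Hochberg adjusted p below 0.05, 3 libraries per group). Between the lines 16% of the genes tested were called, so a called difference is common.

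Genes that rose in A549 and had a higher response there than in H460 came first. The differences were widest for NEFL (4.79), GOLT1A (3.60), PTGES (3.00), INSYN2B (2.81), HSBP1L1 (2.52), HK2 (2.45), SLC16A6 (2.38), CHGA (2.38), TRIB3 (2.28), PHLDA3 (2.22) and MAP1LC3A (2.19). They were smaller for LCE1B (2.10), DHRS2 (1.96), HRK (1.76), MDM2 (1.74), MSMO1 (1.73), KRTAP3-2 (1.72), TP53INP1 (1.70), CYP4F2 (1.69), HK1 (1.67), INSIG1 (1.67) and GREM1 (1.59). The narrowest of these were ACSL3 (1.53), INA (1.49), GSTO1 (1.44), TFF1 (1.42), PLIN2 (1.4), HES7 (1.37), CXCL11 (1.30), MMP10 (1.28), MRPL58 (1.22, but 0.91 with median-of-ratios scaling), MT1F (1.15, but 0.86 with median-of-ratios scaling, 0.37 with a pseudocount of 0.1, 1.04, adjusted p = 0.058, without ISP-I library 2, 1.08, adjusted p = 0.053, without control library 1 and 1.03, adjusted p = 0.056, without control library 2) and ITGA2 (1.03, but 0.77 with median-of-ratios scaling, 0.99 without ISP-I library 1 and 0.83 without control library 3).

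Another 36 genes fell in A549 and had a lower response there than in H460. In 25 of them H460 controls averaged below 1 FPKM, where no fall can exceed 1 on this scale, so the difference and the low level in H460 cannot be told apart. In that group the widest were those of CLDN2 (-3.65), SUSD2 (-3.54), MUC5B (-2.63), GPX2 (-2.63), CEACAM6 (-2.59), TM4SF4 (-2.24), CYP24A1 (-2.19, but -0.45 with a pseudocount of 0.1), MUC5AC (-2.15) and UPK1B (-2.13). Next came HPGD (-1.89), APOH (-1.84), COL5A1 (-1.83), BMP4 (-1.79), ITGB4 (-1.78), CDH1 (-1.77), INHBB (-1.74), AXIN2 (-1.65) and C3 (-1.57). At the narrow end stood UPK3B (-1.42, but -0.85 with a pseudocount of 0.1), SYT13 (-1.30), C5 (-1.29), STRA6 (-1.28, but -0.81 with a pseudocount of 0.1), SFRP1 (-1.23), FGA (-1.10, but -0.89 without control library 2) and ADAMTS9 (-1.05, but -0.99 without ISP-I library 2 and -0.99 without control library 2). In the others, with 1 FPKM or more in H460 controls, the differences were those of CXCL1 (-2.50), LTBP2 (-2.33), CPLX2 (-2.20, but -0.94 with a pseudocount of 0.1), TGFBR2 (-2.06), JUP (-1.99), TFPI2 (-1.90), TGFBI (-1.41), CNTN1 (-1.38, but -0.54 with a pseudocount of 0.1), CYP2S1 (-1.27, but -0.36 with a pseudocount of 0.1), CALR (-1.16) and BCAM (-1.15, but -0.26 with a pseudocount of 0.1).

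A further group rose in A549, but less than in H460. H460 exceeded A549 most for FOS (-3.73), DUSP10 (-3.63), WNT9A (-3.53), JUN (-3.43), MT1G (-3.07), EGR1 (-3.05), KLF10 (-2.86), FOSB (-2.70), PPP1R15A (-2.66), ARC (-2.45), IL24 (-2.44) and SLC30A1 (-2.39). It did so by less for MAFF (-2.24), VGF (-2.21), FOSL1 (-2.17), KLF6 (-2.11), ALOXE3 (-2.09) and DNAJB9 (-1.95). Next were GADD45G (-1.94, but of opposite sign with a pseudocount of 0.1), GEM (-1.91), CRABP2 (-1.88), HMGCS1 (-1.83), NR1D1 (-1.70) and RND3 (-1.68). The gap was narrowest for BIRC3 (-1.63), CYP1A1 (-1.60), TRAF1 (-1.58), GABARAPL1 (-1.55), ANKRD1 (-1.43), CLDN6 (-1.37), AEN (-1.31), IFI16 (-1.24, but -0.47 with a pseudocount of 0.1), CHGB (-1.21), HBEGF (-1.12), RHCG (-1.02, but -0.94 without ISP-I library 1, -0.998 without control library 1 and -0.993 without control library 3) and NFKBIB (-1.02, but -0.995 without ISP-I library 2 and -0.96 without control library 3).

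The remaining genes fell in A549, but less than in H460. A low level in A549 controls limits the fall there on this scale. NOTCH3 and NES averaged 3.12 and 1.94 FPKM in A549 controls, beside 45.9 and 35.6 in H460 controls. For both, the difference and the low level in A549 cannot be told apart. The differences in this group were those of NOTCH3 (3.18), NES (2.57), OAS3 (2.18), COL5A2 (2.11), HSPA1A (2.03), KIF20A (2.02), PSAT1 (1.96), DDIT4 (1.91), ID1 (1.84), ACTB (1.71) and LMNB1 (1.65). Smaller ones were those of PLK1 (1.62), UBE2T (1.55), ADAM19 (1.52), TUBB (1.5), LRP5 (1.33), CASP6 (1.32), RAB3D (1.30), LIPA (1.25, but 0.995 with median-of-ratios scaling), PLOD1 (1.23, but 0.97 with median-of-ratios scaling), SREBF1 (1.07, but 0.79 with median-of-ratios scaling) and TIMELESS (1.03, but 0.75 with median-of-ratios scaling).

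Among genes not called in A549 the difference was called for BHLHE40 (-1.92) and NRG1 (-3.62). NRG1 had a change of -0.94 in A549 and 2.68 in H460.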

How the results depend on the processing

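In A549, 575 genes were higher and 481 lower, and a pseudocount of 0.1 gave 1336 and 1062, voom on recovered reads 1393 and 1197, and limma treat, which tests for more than 2-fold, 227 and 173. With 1 library left out there were 556 to 607 higher and 480 to 499 lower. The difference between the lines gave 1407 genes higher in A549 and 827 lower. These were 2788 and 1451 with a pseudocount of 0.1, and 827 and 1300 with median-of-ratios scaling. With 1 A549 library left out they were 1356 to 1522 and 791 to 933. Leaving out H460 libraries was not tried. Part of these shifts follows from construction, since the smaller pseudocount and voom shrink low genes less and treat asks more. Median-of-ratios scaling divided levels by factors of 0.837 to 0.850 in the H460 ISP-I libraries. The other libraries had factors of 1.01 to 1.09. Why the factors of the H460 ISP-I libraries were lower was not tested. Of the 1056 calls, 1051 held their direction with voom, 1035 with median-of-ratios scaling and 949 without control library 3.

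Of 264 called genes examined singly, 116 lost the call under treat, 6 with median-of-ratios scaling and 34 without 1 of the libraries, and none changed sign. Of 132 differences between the lines examined singly, 20 lost the call under some alternative. That of GADD45G, with at most 1 read in each A549 control library, turned from -1.94 to 0.080 with a pseudocount of 0.1. No paired analysis was possible because the columns carry a running number and not the replicate numbers of the labels. Control library 3, 3 replicates per group and the 1 dose and time limit what these data show, and changes of genes below 1 FPKM depend on the pseudocount.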

Other observations

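Large changes also occurred outside the gene lists, and the genes below were picked from the top of that order after their values were seen. Among rises, PLA2G4C, a cytosolic phospholipase A2, went from 0.50, 0.278 and 0.420 to 13.2, 12.8 and 13.5 FPKM (3.34, SE 0.086), and ALOXE3, an epidermal lipoxygenase, from 1.55, 1.66 and 1.57 to 22.4, 23.8 and 22.0 (3.19, SE 0.071). HPGD, the dehydrogenase that inactivates prostaglandins, fell from 35.6 ± 6.97 to 8.54 ± 0.357 FPKM (-1.92, SE 0.13). The calcium-binding S100A2 rose from 4.0 ± 1.05 to 42.2 ± 1.37 FPKM (3.13, SE 0.13), the small GTPase GEM, an immediate early gene outside the list, from 1.64 ± 0.340 to 22.6 ± 0.324 FPKM (3.17, SE 0.098), and SNAPC1, a subunit of the snRNA activating complex, from 2.64 ± 0.470 to 29.8 ± 1.02 FPKM (3.09, SE 0.099). RHCG, an ammonium channel, rose from 1.55 ± 0.158 to 17.5 ± 1.68 FPKM (2.86, SE 0.094). In each of these genes the 2 groups lay far apart.

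Among falls outside the lists, SCARA3, a scavenger receptor, fell from 29.2 ± 2.47 to 5.37 ± 0.240 FPKM (-2.24, SE 0.081), the tetraspan protein TM4SF4 from 22.4 ± 0.301 to 4.11 ± 0.508 FPKM (-2.20, SE 0.085) and the laminin receptor BCAM from 21.1 ± 1.87 to 3.83 ± 0.284 FPKM (-2.19, SE 0.087). The uroplakins UPK1B (-2.13) and UPK3B (-1.76), plaque proteins best known from the bladder, fell together. CALM3, a calmodulin gene, went from 97.2, 94.0 and 99.2 to 23.4, 25.0 and 22.6 FPKM (-1.99, SE 0.065). Of genes for retinoid handling, the binding protein CRABP2 rose from 3.02 ± 0.358 to 14.1 ± 0.951 FPKM (1.91, SE 0.092) and the retinol carrier STRA6 fell from 9.29 ± 0.518 to 2.03 ± 0.143 FPKM (-1.77, SE 0.08).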
